A study of Mus musculus with 23 samples.

Results

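CXCR3 and its ligands were followed in all 23 libraries of a mouse melanoma RNA sequencing (RNA-seq) study: the ligand genes Cxcl9, Cxcl10 and Cxcl11 and the receptor gene Cxcr3, which are 4 of the 47643 genes in the table. They were found in the table by gene symbol, and each symbol matched 1 gene. The study asked what loss of the nuclear receptor NR2F6 in melanoma cells does to gene expression, and the comparisons here ask which of the ligands are found in melanoma cells alone and which are found only together with host cells. B16F10, a melanoma line from a C57BL/6 mouse, was used throughout.

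The sample types were bulk tumors, tumor cells from which stromal cells had been depleted with magnetic beads after collagenase digestion (sorted tumor cells), and cultured cells. Each type had 2 control libraries of genotype WT and 2 libraries of each of the NR2F6 KO groups, sg492 and sg495, which are named after the guide used. The edited cells had received Cy3-labeled guide RNA with Cas9 protein and were sorted for Cy3, which is a pool and not stated to be 1 clone. The remaining libraries are labelled WT with IgG control (n = 2) or anti-PD1 (n = 3), an antibody against the checkpoint receptor PD-1, and their labels give no tissue. The study's methods give young adult male C57BL/6 mice as hosts of B16F10 in general. Which mice gave these libraries, and whether libraries of a group came from separate animals or cultures, is not stated, so p-values measure the spread between libraries, which may be technical. Values are TPM (transcript levels scaled for gene length and for the library's total), which keep no depth; the labels give 23 to 31 M reads per library.

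CXCL9, CXCL10 and CXCL11 are small secreted chemokines that draw activated T cells and natural killer cells, which carry CXCR3, the receptor they share. All 3 ligand genes are classical targets of interferon-γ (IFN-γ), while Cxcl10 is also switched on by type I interferon and NF-κB in many cell types. C57BL/6 mice carry a frameshift in Cxcl11, so their transcript does not encode the full chemokine.

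The ligand genes sit side by side on the minus strand of chromosome 5 (GRCm38, GENCODE M21): Cxcl9 at chr5:92321347-92328079, Cxcl10 at chr5:92346638-92348889 and Cxcl11 at chr5:92359544-92365485. Together they span 44139 bases with no other gene wholly inside. Cxcl9 and Cxcl10 are protein coding, and Cxcl11 is annotated as a polymorphic pseudogene. Cxcr3, also protein coding, lies at chrX:101731535-101734269 on the minus strand. Art3, an ADP-ribosyltransferase gene on the plus strand, overlaps Cxcl10 and Cxcl11. It shares 133 of the 2252 exon bases of Cxcl10 and 0 of the 3794 of Cxcl11, of which 1582 are shared with the processed pseudogene Gm2673. The library kit was directional, but the strand setting of the counting is not given in the sources used here, so reads of Art3 and Cxcl10 cannot be told apart with certainty.

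The 250 bases before the RefSeq start (GRCm38.p6) were available for 3 of the 4 genes, and those of Cxcl9 and Cxcl10 are shown because these ligands behaved differently in the libraries. Capitals mark matches to an interferon-stimulated response element (ISRE), searched as GAAANNGAAA, or to an NF-κB site, searched as GGGNNNTTCC. Both strands were searched, also for the palindromic interferon-γ activated site (GAS), searched as TTCNNNGAA, and no matches overlapped.
Cxcl10, chr5:92348890-92349139, minus strand: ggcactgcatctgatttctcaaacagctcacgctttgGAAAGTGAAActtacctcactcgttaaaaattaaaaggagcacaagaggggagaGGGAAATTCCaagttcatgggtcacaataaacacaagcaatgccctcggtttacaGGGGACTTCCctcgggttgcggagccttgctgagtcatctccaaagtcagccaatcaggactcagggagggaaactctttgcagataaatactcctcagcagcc
Cxcl9, chr5:92328080-92328329, minus strand: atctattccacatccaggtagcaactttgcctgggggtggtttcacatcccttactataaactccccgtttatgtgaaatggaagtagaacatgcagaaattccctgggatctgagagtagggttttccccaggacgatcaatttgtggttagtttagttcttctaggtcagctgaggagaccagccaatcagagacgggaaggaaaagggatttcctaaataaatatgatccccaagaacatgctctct
The Cxcl10 window held 1 ISRE match (bases 213 to 204 before the start) and 2 NF-κB matches (159 to 150 and 104 to 95), and 0 GAS matches. The Cxcl9 window and the Cxcr3 window, chrX:101734148-101734397, held 0 matches to any of the motifs. The GENCODE model of Cxcr3 starts further upstream than the RefSeq one and reaches into its window. Over all 32817 such windows, 2.97% held the ISRE, 4.65% the NF-κB and 7.01% the GAS letters, and a match or its absence describes these letters only.

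Nr2f6, the edited gene, was checked first. In bulk tumors it was at 25.83 and 25.24 TPM in control, 22.31 and 23.31 in sg492 and 17.22 and 15.76 in sg495 libraries. In sorted tumor cells it was at 20.32 and 17.73 in control, 19.84 and 25.7 in sg492 and 10.6 and 12.18 in sg495 libraries, and in cultured cells at 31.88 and 32.9, 26.55 and 31.5, and 18.55 and 22.43. The sg495 libraries were below both controls in every sample type, whereas the sorted libraries labelled sg492 were not. An RNA level does not measure the protein, so this check has limited reach.

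Cxcl10 was present in cultured melanoma cells, where no leukocyte transcript of Ptprc (CD45) was listed above 0. Cultured controls had 22.89 and 22.57 TPM, sg492 cells 19.94 and 19.93, and sg495 cells 34.96 and 33.8. The 3 groups did not overlap, with sg495 highest and sg492 lowest, an order that 2.26% of tested genes (those averaging 1 TPM or more) had. In sorted tumor cells Cxcl10 was at 42.43 and 56.0 TPM in control, 67.86 and 41.83 in sg492 and 75.68 and 88.99 in sg495 libraries. In bulk tumors it was at 78.85 and 49.43 in control, 114.57 and 141.11 in sg492 and 154.59 and 149.51 in sg495 libraries. Both guides lay above both controls in bulk tumors, and sg495 alone did in sorted tumor cells, where sg492 overlapped control. Of all tested genes, 31.6% lay above both bulk controls with sg495 and 31.1% with sg492, and 17.9% lay above both sorted controls with sg495.

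Among bulk, sorted and cultured samples, Cxcl9 was found mainly in bulk tumors. It was listed at 0 in 5 of the 6 cultured libraries and at 0.02 TPM in the sixth, an sg492 library. Sorted controls had 0.07 and 0.05 TPM, the sorted libraries labelled sg492 had 0.06 and 0.03, and sorted sg495 libraries had 1.79 and 0.47. Bulk tumors had 14.01 and 7.0 TPM in control, 29.43 and 29.16 in sg492 and 46.73 and 34.85 in sg495. The lowest bulk library thus stood above the highest sorted library, as for 14.2% of tested genes. In bulk tumors the order was control, sg492, sg495 with no overlap between groups, as for 5.49% of tested genes.

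Cxcl11 was low throughout these types. In cultured cells it was at 0 and 0.13 TPM in control, 0.18 and 0.04 in sg492 and 0.13 and 0 in sg495. In sorted cells it was at 0.09 and 0.1 in control, 0.26 and 0.17 in sg492 and 0.55 and 0.88 in sg495, and in bulk tumors at 0.17 and 0.27, 0.62 and 1.1, and 0.74 and 0.92. Both guides were above both controls in bulk and sorted samples, while the cultured groups overlapped. For single guides this held for 31.6% (sg495) and 31.1% (sg492) of tested genes in bulk tumors and for 17.9% and 20.4% in sorted cells, shares taken over genes more abundant than Cxcl11. Its mean was below the 1 TPM needed for a test in each of the 3 types.

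Cxcr3 had another pattern. Bulk tumors had 5.97 and 7.74 TPM in control, 5.28 and 5.19 in sg492 and 5.84 and 6.75 in sg495. Sorted tumor cells had 3.73 and 3.05 in control, 1.83 and 1.96 in sg492 and 1.68 and 1.8 in sg495, and cultured cells had 0.15 and 0.04, 0.46 and 0.16, and 0.23 and 0.16. Every sorted library was thus above every cultured library and below every bulk library, as for 0.973% of tested genes. Within sorted cells both guides lay below both controls, as did 31.5% of tested genes with sg495 and 20.0% with sg492.

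**Figure D1:**
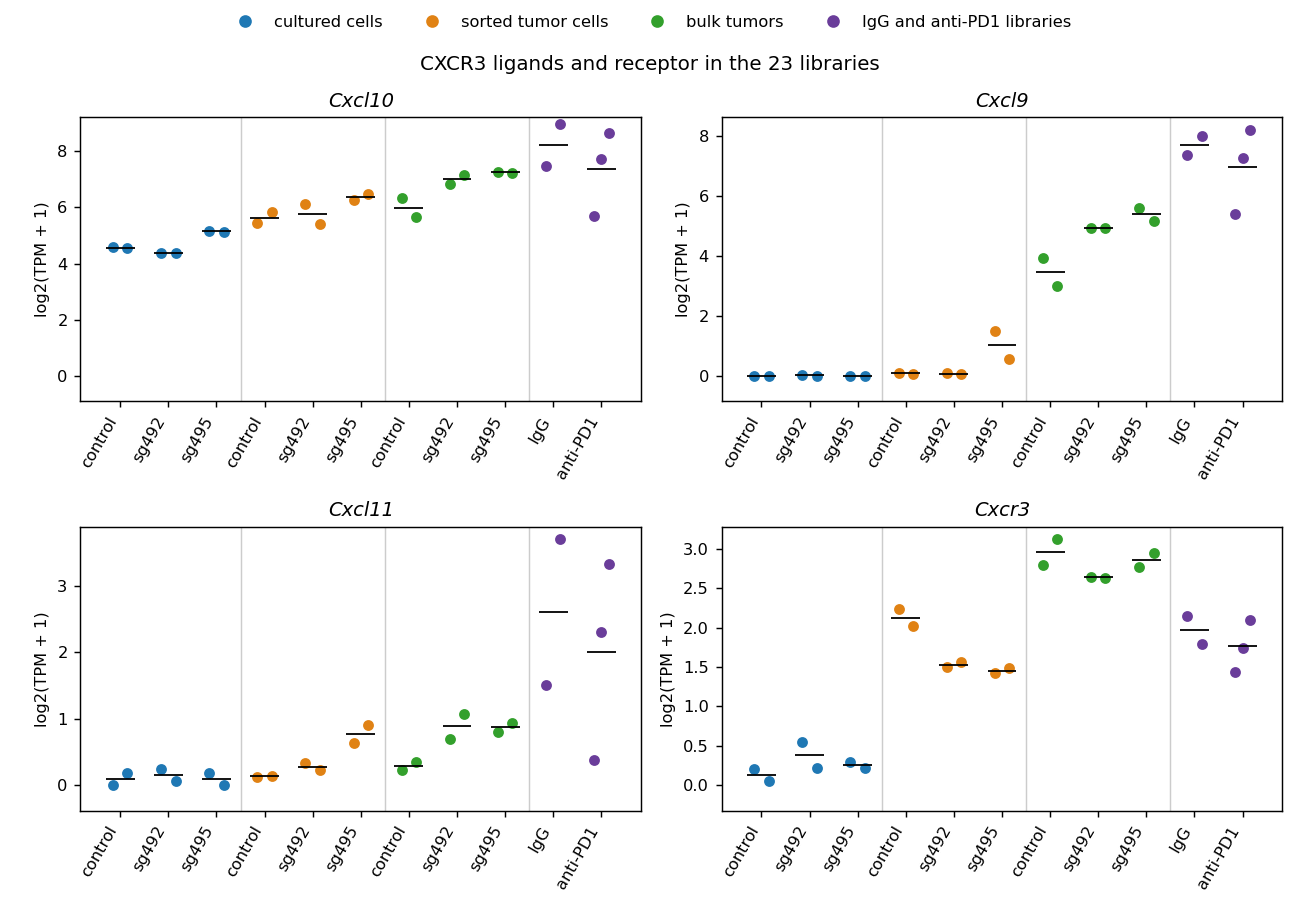
Level of each gene on the log2(TPM + 1) scale (y axis) in every library (points, horizontally spread), by group (x axis) and sample type (color); black lines are group means, and the y axes differ between panels. Cxcl10 has its lowest value at 19.93 TPM, Cxcl9 is near 0 in cultured cells and in sorted control and sg492 cells, and Cxcr3 has its lowest sorted value at 1.68 TPM.

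The control libraries were compared between sample types to ask where each gene is found without editing. Cxcl10 rose from cultured to sorted cells by 1.07 (log2 scale of TPM + 1, SE 0.23, adjusted p = 0.00229, limma) and did not pass from sorted cells to bulk tumors, with a difference of 0.35 (adjusted p = 0.283). Cxcl9 was at or near 0 in cultured and sorted controls, where no difference could be read, and higher by 3.37 in bulk tumors than in sorted cells. It entered the fit only through bulk tumors, and with no filter on low genes that difference had an adjusted p of 2.83e-05. Cxcr3 rose in both steps, by 2.0 and 0.83. It entered the fit only through sorted cells and bulk tumors, and with no filter the adjusted p was 1.73e-05 and 0.0069. The second was lost with a pseudocount of 0.1 TPM (0.99, adjusted p = 0.0622). Bulk tumors exceeded cultured cells in all 3 of these genes, by 3.45 for Cxcl9, 1.42 for Cxcl10 and 2.84 for Cxcr3. Genes were called at an adjusted p under 0.05 with a change of 1.5-fold or more, which many genes met here: 20.2% of 13152 genes for sorted against cultured cells, 12.7% for bulk tumors against sorted cells and 17.9% for bulk tumors against cultured cells.

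The share of the bulk tumor level that remained after depletion set the ligands apart from each other. Among control libraries, the mean TPM of Cxcl10 in sorted cells was 76.7% of that in bulk tumors, that of Cxcr3 49.5%, and that of Cxcl9 0.571%. Host markers were left at a median of 0.2% for 7 leukocyte genes, 0.158% for 8 macrophage genes, 0.827% for 7 fibroblast genes and 0.0815% for 5 endothelial genes, whereas 8 melanocyte genes were left at 95.5%. The highest genes of these host lists were Coro1a (leukocytes) at 5.48%, Cd68 (macrophages) at 8.65%, Pdgfrb (fibroblasts) at 39.0% and Pecam1 (endothelial cells) at 1.6%. In other host lists, Cd79a, of B cells, was left at 95.2% and Zbtb46, of dendritic cells, at 106%. They were the only and 1 of 2 genes of their lists with at least 1 TPM in control bulk tumors. The melanocyte genes ran from 70.6% to 140%. In control libraries the share of Cxcl10 thus lay above that of 1 melanocyte gene, Mlana, and below those of the other 7 (85.5% or more), and that of Cxcl9 near the medians of the leukocyte and fibroblast genes. Some other IFN-γ targets were as low, such as H2-Ab1 at 0.326% and H2-Aa at 0.41%, while the 20 listed targets had a median of 7.4%. In bulk RNA, fewer cells of a type and less RNA per cell cannot be told apart. Of the 8 other CXC chemokines with at least 1 TPM in control bulk tumors, the highest share left was 3.24%, for Cxcl3, and the median was 0.542%. Cxcl12, a ligand of CXCR4 made by stromal cells, fell from 8.16 to 0.01 TPM in mean, and Cxcl16, the ligand of CXCR6, from 11.94 to 0.125.

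**Figure D2:**
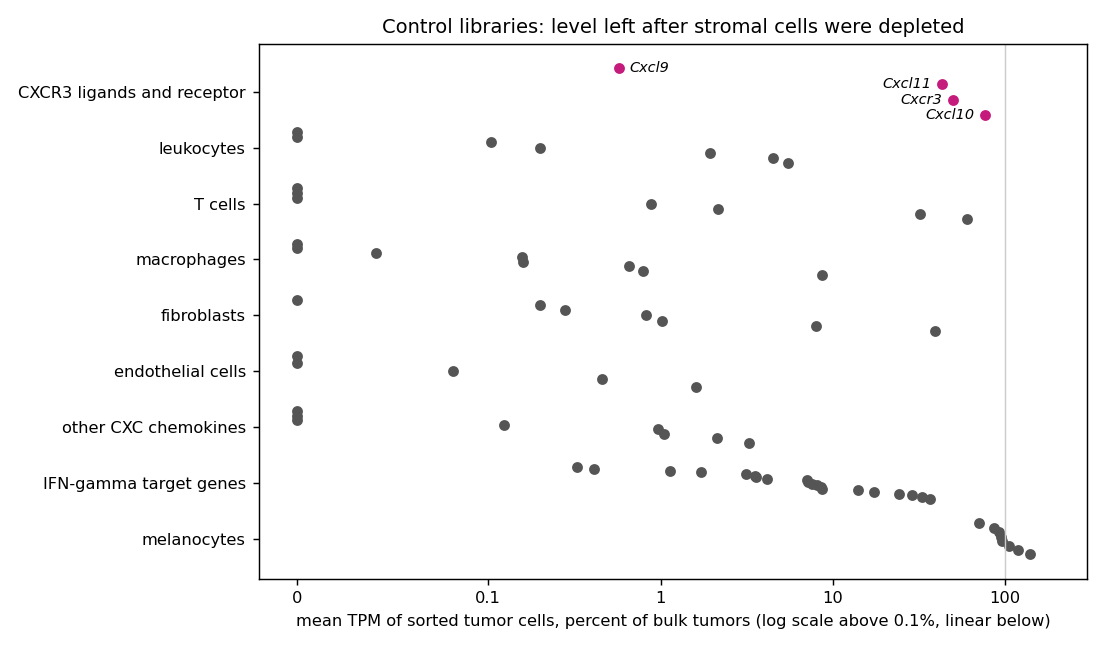
Mean TPM of control sorted tumor cells as a percent of control bulk tumors (x axis, logarithmic above 0.1% and linear below) for the 4 genes (magenta) and for genes of marker and pathway lists with at least 1 TPM in bulk tumors (grey, 1 point per gene); the vertical line is 100%. Cxcl10 lies at 76.7% and Cxcl9 at 0.571%, among leukocyte and macrophage genes.

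With sg495 the shares were 54.1% for Cxcl10, 27.6% for Cxcr3 and 2.77% for Cxcl9, and with the libraries labelled sg492 they were 42.9%, 36.2% and 0.154%. The melanocyte genes ran from 83.9% to 120% with sg495 and from 80.6% to 125% with sg492, so with either guide Cxcl10 lay below all 8. The median of the leukocyte genes was 0.336% with sg492 and 0.647% with sg495, and that of the macrophage genes 0.0291% and 0.137%. Ptprc was at 0.15 and 0.02 TPM in sorted sg495 libraries, against 0.0 and 0.03 in sorted controls, and the 7 leukocyte genes summed to 5.08 and 5.06 TPM, against 4.31 and 3.5. Most of the sg495 sums was Fcer1g (2.29 and 1.83 TPM) and Coro1a (1.4 and 1.48), which cultured cells also had. The sorted libraries labelled sg492 had Ptprc at 0.03 and 0.07 TPM, Fcer1g at 1.55 and 4.3 and Coro1a at 3.29 and 2.01. Cxcl9 was at 0.06 and 0.03 TPM in these sg492 libraries. Between the sorted sg495 libraries, Ptprc and Cd52 were higher in replicate 1, where Cxcl9 was higher, and Cd53 and Tyrobp in replicate 2. Mitochondrial transcripts took 8.02% of the TPM in sorted sg495 replicate 1, against 3.45% to 4.73% in the other 5 sorted libraries. The part of that library's makeup and of leftover leukocytes in the Cxcl9 level was not tested.

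Cxcr3 remained in sorted cells while most T cell genes did not. Cd3e, the gene of a CD3 chain, was at 0 in all sorted and cultured libraries, and Cd8a was above 0 in 1 sorted library only, sg495 replicate 1, at 0.12 TPM. The 9 T cell genes summed to between 2.91 and 6.33 TPM in sorted libraries, of which Lck, a kinase of T cells, made 2.76 to 5.82. Lck was left at 59.9% in control cells and Cd247, another T cell receptor chain, at 32.1%, against a median of 0.875% for the 7 T cell genes with at least 1 TPM in control bulk tumors. Cd79a, a B cell receptor gene, was left at 95.2%. Cxcr3 was therefore among a few lymphocyte genes that stayed after depletion, and in cultured cells Lck still had 0.65 to 1.55 TPM where Cxcr3 had at most 0.46. The others were also seen in culture: in control means, Cd247 was at 0.4 TPM in cultured and 0.38 in sorted cells, and Cd79a at 0.66 and 2.465.

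The guides were then compared with control within each sample type. In bulk tumors, mean Cxcl9 was 40.79 TPM with sg495 and 10.5 in control, a difference of 1.92 (log2 scale of TPM + 1, SE 0.29, adjusted p = 0.0865, limma), and mean Cxcl10 was 152.1 and 64.14 TPM, a difference of 1.27 (SE 0.21, adjusted p = 0.0959). Neither passed the threshold. Calls were rare in this fit, at 0.0293% of 13639 genes, although 2135 genes had an unadjusted p below 0.05, and their number depended on the libraries fitted. A limma fit of all 18 libraries adds sorted and cultured ones. Most of these had Cxcl9 at or near 0, which says little about its spread between tumors. Both ligands passed in that limma fit (adjusted p = 0.00547 and 0.00818), where 395 of 13152 genes were called, 361 of them higher. Both also passed without control replicate 1 (differences of 2.37 and 1.60), where calls among all genes were more frequent too. They did not without control replicate 2 (1.46 and 0.94, adjusted p = 0.165 and 0.182), with no filter (adjusted p = 0.243 and 0.256) or under the other alternatives. Both sg495 libraries were above both controls for all 3 ligands, as they were for 31.6% of tested genes. Cxcr3 differed by -0.10 (adjusted p = 0.814).

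For sg492 in bulk tumors, Cxcl9 differed from control by 1.47 (SE 0.29, adjusted p = 0.481) and Cxcl10 by 1.01 (SE 0.21, adjusted p = 0.481), with 0.0% of genes called by limma and 1132 genes at an unadjusted p below 0.05. As with sg495, both differences were larger without control replicate 1, where they passed. Both sg492 libraries exceeded both controls for the 3 ligands, and for 31.1% of tested genes. Cxcr3 differed by -0.32 (adjusted p = 0.642). Between the guides, sg495 differed from sg492 by 0.45 for Cxcl9 (95% confidence interval -0.26 to 1.16) and 0.26 for Cxcl10 (-0.26 to 0.78), with 0.0% of genes called by limma and 1384 at an unadjusted p below 0.05. The comparisons of both guides with control share their control libraries. With 2 libraries against 2, an exact permutation test on a single gene cannot give a p below 0.333, so the values rest on limma's spread over all genes.

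The control bulk tumors also had the fewest leukocyte transcripts. Ptprc was at 9.29 and 5.74 TPM in control, 13.79 and 15.98 in sg492 and 18.16 and 26.21 in sg495 bulk tumors. The 7 leukocyte genes summed to 242.8 and 165.4, 287.5 and 326.9, and 380.2 and 442.2 TPM in the same order, with Fcer1g the most abundant in each library and none at 0. All 7 were higher with sg495, at a median difference of 0.95 with 0 called, as were all 8 macrophage genes tested (median 0.85, 0 called), all 7 fibroblast genes (0.89, 0 called) and all 9 T cell genes (0.70, 0 called). Of all tested genes, 63.1% were higher with sg495 and 0.0293% were called. Within the groups the order was mixed: the control library with the lower leukocyte sum had less Cxcl9 and Cxcl10, while the sg495 library with the lower sum had more of both. The part of these cells in the higher ligand levels was not tested.

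In sorted tumor cells, Cxcl10 was higher with sg495 by 0.74 (SE 0.25, adjusted p = 0.240), which did not pass, and Cxcr3 differed by -0.68 (adjusted p = 0.239), which passed in a fit of all 18 libraries (adjusted p = 0.0263). Calls covered 0.899% of 12899 genes. Both sg495 libraries were above both controls for the 3 ligands, against 17.9% of tested genes, and below both for Cxcr3, against 31.5% of tested genes. Cxcl9 and Cxcl11 fell below the level needed for a test. When all genes were kept, Cxcl9 differed by 0.93 (adjusted p = 0.368) and Cxcl11 by 0.64 (adjusted p = 0.179).

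With the sorted libraries labelled sg492, Cxcl10 differed by 0.13 (adjusted p = 0.940) and Cxcr3 by -0.60 (adjusted p = 0.656), in a comparison with 0.0388% of genes called. Both of these libraries were below both controls for Cxcr3, as were 20.0% of tested genes. The sg492 difference of Cxcl10 fell below 0 without control replicate 1 or without sg492 replicate 1. Cxcl10 was 0.61 higher with sg495 than with sg492 (adjusted p = 0.330, limma), where 0.589% of genes were called.

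In cultured cells, with no host cells, Cxcl10 lay above both controls with sg495 and below both with sg492. It was 1.51 times higher in sg495 cells than in control by mean TPM, at 34.38 against 22.73. The difference on the log2(TPM + 1) scale was 0.58 (SE 0.06, adjusted p = 0.00364, limma), just short of the 1.5-fold threshold on that scale, so it was not called. Calls covered 2.77% of 12007 genes, and both sg495 libraries exceeded both controls for 27.5% of tested genes. The study states that the higher Cxcl10 of its RNA-seq was not borne out when cultured NR2F6-deficient melanoma cells were checked. For sg492, Cxcl10 differed by -0.18 (adjusted p = 0.367), with both libraries below both controls as for 14.3% of tested genes, and 0.05% of genes called. Between the guides the difference was 0.76 (SE 0.06, adjusted p = 0.00235) and was called, where 2.61% of genes were; in a fit of all 18 libraries it was not (adjusted p = 0.0771). Cxcl9, Cxcl11 and Cxcr3 were below the level needed for a test in cultured cells.

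Art3, which overlaps Cxcl10 on the other strand, had the same order of groups in culture. It was at 34.19 and 33.74 TPM in cultured control, 23.24 and 27.01 in sg492 and 64.4 and 61.62 in sg495 cells. With sg495 it rose by 0.87 (SE 0.08, adjusted p = 0.00291), and against sg492 by 1.3 (adjusted p = 0.00140). In sorted cells it was at 34.69 and 35.06 TPM in control, 25.98 and 35.69 in sg492 and 49.9 and 38.6 in sg495, with sg495 above both controls and sg492 overlapping them, as for Cxcl10. From cultured to sorted controls Art3 differed by 0.04 (adjusted p = 0.889), while Cxcl10 rose. In bulk tumors Art3 was at 34.91 and 46.54 TPM in control, 32.42 and 31.36 in sg492 and 65.08 and 68.06 in sg495. With sg495 it was above both controls, as Cxcl10 was, at a difference of 0.71 (adjusted p = 0.105), and with sg492 below both, where Cxcl10 lay above. Whether Art3 reads contributed to the Cxcl10 counts in cultured cells was not tested.

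**Figure D3:**
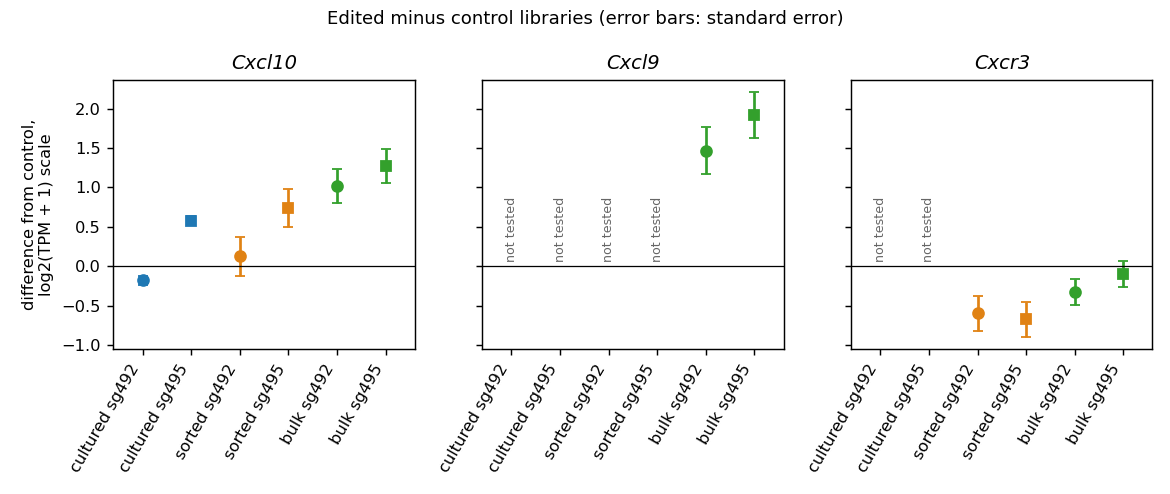
Difference of each guide from control (y axis, log2 scale of TPM + 1) for Cxcl10, Cxcl9 and Cxcr3 by sample type and guide (x axis); points are limma estimates, circles sg492 and squares sg495, with bars of 1 SE, and "not tested" marks genes below a mean of 1 TPM. The estimates for Cxcl10 with sg495 are 0.58, 0.74 and 1.27 in cultured, sorted and bulk samples, and those for Cxcr3 are below 0.

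The sg495 effect was compared between sample types in a fit of all 18 libraries. Cxcl9 reached this fit only through bulk tumors and was listed at 0 in cultured control and sg495 cells, so its contrast between bulk tumors and cultured cells could only repeat the bulk difference and is not used here. For Cxcl10 the differences in effect were 0.69 for bulk minus cultured (adjusted p = 0.329, with 1.76% of genes called), 0.53 for bulk minus sorted (adjusted p = 0.460, with 0.122% called) and 0.16 for sorted minus cultured (adjusted p = 0.852, with 2.51% called). No difference in the Cxcl10 effect between sample types was therefore detected. Cxcr3 was too low in cultured cells for its contrasts with them to be used.

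The balance of the ligands also differed by sample type. Of the summed TPM of the 3 ligands, Cxcl9 made 15.1% and 12.3% in control bulk tumors, 20.3% and 17.0% with sg492 and 23.1% and 18.8% with sg495. It made at most 0.164% in sorted control and sg492 cells, 2.29% and 0.52% in sorted sg495 cells and at most 0.0993% in cultured cells. Cxcl10 was thus nearly the sole CXCR3 ligand transcript of cultured and sorted melanoma cells, and Cxcl9 had its larger share in bulk tumors.

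Upstream of the ligands, Ifng, the gene for IFN-γ itself, was at 0.34 and 0.18 TPM in control, 1.14 and 0.7 in sg492 and 1.11 and 0.93 in sg495 bulk tumors. It was listed at 0 in all cultured libraries and in sorted cells of both guides, and at 0.06 and 0.07 TPM in sorted controls. Both guides were above both controls in bulk tumors, at levels too low for a test. Of tested genes, which are more abundant than Ifng, this held for 31.6% with sg495 and 31.1% with sg492. Of the 6 listed inducing cytokines, 3 could be tested in bulk tumors for sg495, with 0 called, where 0.0293% of tested genes were called. The 1 that could be tested in cultured cells, Il18, whose product promotes IFN-γ release, fell by 0.84 with sg495 (adjusted p = 0.0265, limma). There, 2.77% of tested genes were called.

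Irf1, the gene of a transcription factor that IFN-γ induces, separated the sorted tumor cells by guide. In sorted cells it was at 6.4 and 2.91 TPM in control, 12.34 and 7.47 in sg492 and 73.34 and 53.74 in sg495. The sg495 libraries stood apart from all others, with a difference from control of 3.57 (adjusted p = 0.0167). In cultured cells the sg495 difference was -0.48 and was not called. Bulk tumors had Irf1 at 42.16 and 24.64 TPM in control, 71.75 and 79.76 in sg492 and 110.76 and 80.49 in sg495. Both guides were thus above both controls in bulk tumors, as for 31.6% of tested genes with sg495 and 31.1% with sg492. Both NF-κB subunit genes on the list, Nfkb1 and Rela, were tested in sorted cells and 0 were called with either guide. Of all tested genes there, 0.899% were called with sg495 and 0.0388% with sg492.

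Other IFN-γ targets can be set beside the ligands. In sorted sg495 cells, 19 of the 20 listed target genes were tested, of which 6 were under 1 TPM in sorted controls and had to be high in an edited group to be tested at all. The other 13 all rose and were called, at a median difference of 3.6, where 0.899% of tested genes were called and the median of all genes was -0.04. Examples are Gbp2, a guanylate-binding protein, at 4.75 (adjusted p = 0.0392, limma) and Iigp1, an immunity-related GTPase, at 4.65 (adjusted p = 0.0246). With no filter on low genes, calls became rare in this comparison, so most of these 13 calls were lost. Cxcl10, at 0.74 and not called, lay below that median in the same libraries. Its level in sorted control cells was already 49.22 TPM in mean. In bulk sg495 tumors all 20 targets were higher, at a median of 1.5 with 0 called. Of all tested genes there, 63.1% were higher and 0.0293% were called, at a median of 0.06. In cultured sg495 cells 6 could be tested, of which 1 was higher and 5 lower than control, at a median of -0.10. Of these only H2-K1, an MHC class I gene, was called, with a fall of 1.91 (adjusted p = 0.00192), where 2.77% of tested genes were called. In the sorted libraries labelled sg492, 17 of the 19 targets tested were higher, at a median of 0.55 with 0 called. Of all tested genes there, 50.8% were higher and 0.0388% were called. The share of the bulk level left after depletion had a median of 7.4% for the targets in control, 5.38% with sg492 and 52.6% with sg495. For Cxcl10 it was 76.7%, 42.9% and 54.1%, and for Cxcl9 0.571%, 0.154% and 2.77%. The lowest share among the targets was 0.326%, 0.247% and 12.3% in the same order.

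The genes with the pattern most like each member were found by Pearson's r of log2(TPM + 1) over the 18 libraries after the mean of each sample type was taken off, over 13149 genes. For Cxcl9 they were Oas3 (r = 0.958), Gm12185 (0.957) and Trim30d (0.941). For Cxcl10 they were Pnp (0.924), Nckap1l (0.897) and Sdc3 (0.890), and for Cxcl11 they were Stat3 (0.895), Ifi204 (0.889) and Oas2 (0.888). For Cxcr3 they were Asrgl1 (0.880), Rrm2 (0.849) and Slc45a4 (0.838). Among the members, r was 0.79 for Cxcl9 with Cxcl10, 0.704 for Cxcl9 with Cxcl11 and 0.736 for Cxcl10 with Cxcl11, and between -0.497 and -0.448 for Cxcr3 with the ligands. These values describe 18 libraries that share 9 groups.

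The IgG and anti-PD1 libraries differed in makeup from the bulk tumors and are given side by side only. Their 7 leukocyte genes summed to 4676 and 5434 TPM with IgG and 2403, 4170 and 4346 with anti-PD1, and their 8 melanocyte genes to 4007 and 1700, and 5194, 5137 and 3408, where the lowest of the 6 bulk tumors had 15590. Cxcl9 was at 163.21 and 252.88 TPM with IgG and 40.56, 150.2 and 291.53 with anti-PD1. Cxcl10 was at 177.06 and 504.2 with IgG and 51.28, 210.08 and 406.81 with anti-PD1. For both ligands the groups overlapped, and the anti-PD1 library of replicate 1 was the lowest of the 5.

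Cxcl11 reached 1.83 and 11.98 TPM with IgG and 0.3, 3.95 and 9.01 with anti-PD1, again with overlap. Cxcr3 was at 3.43 and 2.46 with IgG and 1.72, 2.36 and 3.3 with anti-PD1. All 5 of these Cxcr3 values were below those of the bulk tumors, although Cd3e was at 20.06 and 22.09 TPM with IgG and 0.65, 2.41 and 29.65 with anti-PD1, against 0.55 to 3.35 in bulk tumors. Cxcl9 made 47.7% and 32.9% of the summed ligand TPM with IgG and 44.0%, 41.2% and 41.2% with anti-PD1.

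Against IgG, anti-PD1 libraries differed by -0.74 for Cxcl9 (adjusted p = 0.714), -0.86 for Cxcl10 (adjusted p = 0.709), -0.60 for Cxcl11 (adjusted p = 0.826) and -0.20 for Cxcr3 (adjusted p = 0.865). Limma called 0.0% of 13418 genes, with 964 at an unadjusted p below 0.05. With the replicate number as a block in limma, Cxcl9 (-1.37, adjusted p = 0.00277) and Cxcl10 (-1.51, adjusted p = 5.18e-04) passed, as did many other genes. Anti-PD1 replicate 3 has no IgG partner and drops out of that contrast, and without it the differences were the same with no block (-1.37 and -1.51) but did not pass (adjusted p = 0.667 for both). The labels do not say that the number pairs these libraries. The smallest exact permutation p for 2 against 3 libraries is 0.1. Mitochondrial transcripts took 21.9% of the TPM in anti-PD1 replicate 1 and 8.63% to 16.6% in the other 4 libraries, and without that library the difference was 0.043 for Cxcl9 and -0.032 for Cxcl10. Without IgG replicate 2 it was -0.42 and -0.11. For Cxcl11 the difference was above 0 without anti-PD1 replicate 1 and also without IgG replicate 2.

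**Figure D4:**
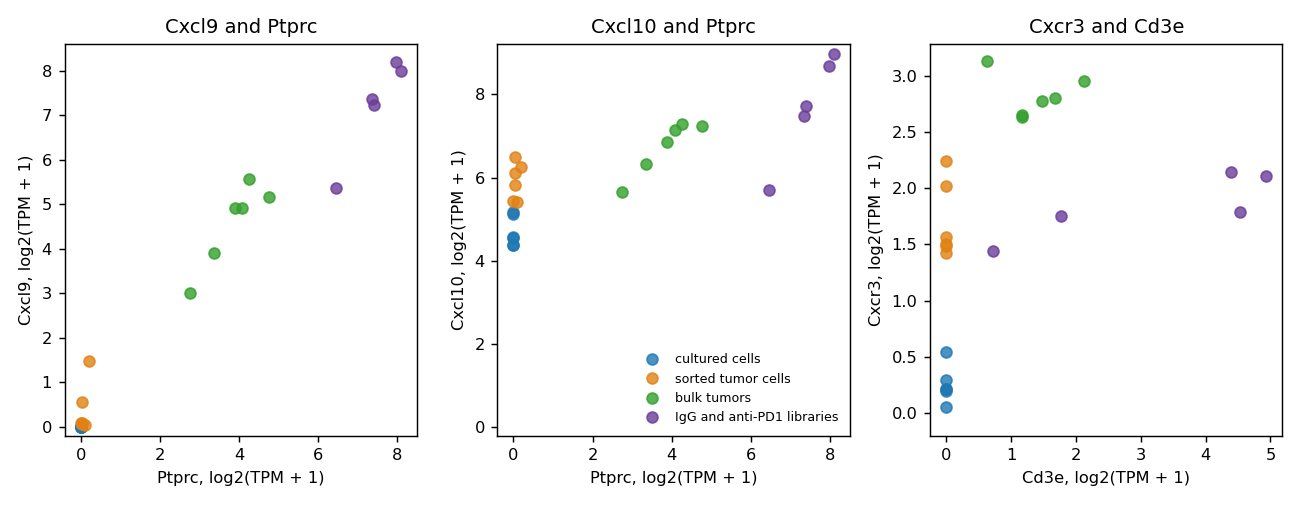
Cxcl9 and Cxcl10 against Ptprc, and Cxcr3 against Cd3e, in the 23 libraries (points, both axes log2(TPM + 1), color by sample type). Where Ptprc is near 0, Cxcl9 is at most 1.79 TPM (a sorted sg495 library) and Cxcl10 at least 19.93, and Cxcr3 is between 1.68 and 3.73 TPM in sorted libraries in which Cd3e is listed at 0.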

How the data were processed

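Per the labels, poly(A) RNA libraries were made with a directional kit and read from one end. The authors trimmed reads with cutadapt 2.3, aligned them to mm10 with STAR 2.7.0d and Ensembl annotation, estimated gene levels with RSEM 1.3.1, and deposited 1 table of TPM for 47643 genes and 23 libraries. Their own test, DESeq2 on estimated counts, could not be repeated from TPM, and the depth behind each value is not known from them. All value columns were used (0 left out).

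Values were taken as log2(TPM + 1). Genes that averaged 1 TPM or more in the libraries fitted were compared with limma 3.58.1 (lmFit, eBayes with an expression trend) in R 4.3.3, with Benjamini-Hochberg adjustment over all genes tested and 2-sided tests. One fit was made per sample type and one for the IgG and anti-PD1 libraries. A fit of all 18 libraries of the 3 sample types served for differences between types. The script was tested on simulated data.

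The 4 genes and all lists were chosen with earlier results of these data known. Any gene of the lists could be named (chemokine pathway genes, other CXC chemokines and receptors, IFN-γ targets and cell type markers), as could the 3 genes most like each member. Art3 was chosen after its values were seen. One listed gene is not reported here by name. Itgam was left out because its symbol stands for 2 genes. Positions came from GENCODE M21 (GRCm38), which held 47224 of the genes (99.1%), and promoter sequences from RefSeq (GRCm38.p6). Alternatives changed the pseudocount, filter, scaling, trend, fold threshold, libraries fitted and replicate block, or left out each library in turn.

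Deviations from the group means correlated between libraries of the same number at r between -0.126 and 0.0851, so the numbers were not taken to pair libraries.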

Additional observations from a re-analysis of the deposited data

Results flagged for a closer look

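The sg495 effect on Cxcl9 differed between bulk tumors and cultured cells by 1.92 on the log2(TPM + 1) scale (SE 0.42, adjusted p = 0.0403, limma interaction contrast), which singled this value out as a difference between sample types. The value missed the threshold with a pseudocount of 0.1 TPM (adjusted p = 0.199) and with no filter on low genes (adjusted p = 0.0685). Both sg495 bulk tumors were above both control bulk tumors, and Cxcl9 was listed at 0 in all 4 cultured libraries concerned, so the value repeats the bulk difference and the gene was tested only because of its level in bulk tumors.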

How the results depend on the processing

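With median-of-ratios scaling, quantile normalization, a filter of 5 TPM or a fit of only the groups compared, the values that could be fitted for the 4 genes kept their direction and their side of the threshold. At 5 TPM, Cxcr3 could not be fitted outside the bulk tumors. In the fit of all 18 libraries, Cxcl9 (1.92) and Cxcl10 (1.27) passed for sg495 in bulk tumors, Cxcr3 (-0.68) passed for sg495 in sorted cells, and Cxcl10 (0.76) no longer passed for sg495 against sg492 in cultured cells. Most sorted and cultured libraries in that fit had Cxcl9 at or near 0, which says little about its spread between tumors. For sg495 in cultured cells, Cxcl10 passed with a pseudocount of 0.1 TPM (0.59) and with no fold threshold (0.58). With a pseudocount of 0.1 TPM, the difference of the sg495 effect on Cxcl9 was 2.02 for bulk minus cultured, past no threshold, and -0.69 for bulk minus sorted, reversed; Cxcr3 (0.99) no longer passed between control bulk tumors and sorted cells. With no expression filter, the bulk minus cultured value for Cxcl9 (1.92) was lost, and without a trend the sorted minus cultured value for Cxcr3 (-0.80) passed, which is not used because Cxcr3 was too low in cultured cells. The causes were not tested.

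Leaving out 1 library at a time gave ranges of 1.46 to 2.37 for Cxcl9 and 0.94 to 1.60 for Cxcl10 with sg495 in bulk tumors, and of 1.01 to 1.92 and 0.68 to 1.35 with sg492; all 4 passed without control replicate 1. Cxcr3 with sg495 in bulk tumors ranged from -0.26 to 0.063 (without control replicate 2). Cxcl10 ranged from -0.22 to 0.47 for sorted sg492, reversed without control replicate 1 (-0.07) or sg492 replicate 1 (-0.22), and from 0.55 to 0.60 for cultured sg495. For the sg495 effect, Cxcl10 sorted minus cultured ranged from -0.033 to 0.36, and Cxcl9 bulk minus cultured from 1.46 to 2.37. For anti-PD1, Cxcl9 ranged from -1.37 to 0.043, Cxcl10 from -1.61 to -0.032 and Cxcl11 from -1.70 to 0.50. Cxcl9 and Cxcl11 were above 0 without anti-PD1 replicate 1 (Cxcl11 0.22), and Cxcl11 also without IgG replicate 2 (0.50). A group left with 1 library was assumed to vary like the others.

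With the replicate block, Cxcl9 (-1.37) and Cxcl10 (-1.51) passed for anti-PD1, where 514 genes were called in place of 0. The block also leaves anti-PD1 replicate 3 without a partner, and leaving that library out with no block gave the same differences, which did not pass. The block changed no other call on the 4 genes. Exchanging the numbers of the sg492 bulk tumors, tried after the data were seen because r was -0.126, left 0 genes called. Genes called for sg495 against control were 4 in bulk tumors, 395 in the fit of all 18 libraries and 0 with no filter or the block; 116 in sorted cells, 399 in that fit, 53 without a trend and 3 with no filter; and 332 in cultured cells, 1442 with no fold threshold and 219 with no filter. TPM keep no depth, so the lowest detectable level of Cxcl9 or Cxcl11 is not known.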
